A study of Macaca mulatta with 8 samples.

Results

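Microglia, the resident macrophages of the brain, carry surface molecules that restrain immune cells. Transcripts encoding 10 such inhibitory and checkpoint molecules were sought by gene symbol in the count files, namely CD274, PDCD1LG2, HAVCR2, LGALS9, VSIR, SIRPA, LAIR1, CD200R1, SIGLEC1 and CD33. The files paired 8 of the 10 symbols with a row among 35432 genes, and 7 of these 8 passed the filter on low counts. LGALS9 and SIRPA were not found by symbol. Microglia were isolated from the subcortical white matter of 4 adult rhesus macaques (R07110 and R12016, both male, with R02046 and R14143, both female) and were kept for 8 days in medium with M-CSF, given as 10 ng/mL in the labels. On day 7 the cells of each animal were exposed to 10 µg/mL uLPS, an ultrapure lipopolysaccharide that engages TLR4, either alone or after 1 h with 5 µM MRS2578, an antagonist of the UDP receptor P2RY6. RNA was taken 16 h after uLPS, which gave 8 poly(A) libraries, 4 per condition and 1 per animal and condition. Every library comes from uLPS-exposed cells, so the comparison shows the effect of MRS2578 in the presence of uLPS and not the response to uLPS itself. MRS2578 was the only P2RY6 antagonist among these libraries. The methods state that solvent controls accompanied MRS2578, whereas the labels name no solvent for the cells with uLPS alone.

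Checkpoint ligands such as PD-L1 and PD-L2, encoded by CD274 and PDCD1LG2, engage PD-1 on T cells and dampen their activation. VSIR encodes VISTA, which acts as a ligand and as a receptor, and HAVCR2 encodes TIM-3. LAIR1, CD200R1 and CD33 are inhibitory receptors of myeloid cells, for collagens, for CD200 and for sialylated glycans, respectively, and many such receptors recruit phosphatases through tyrosine motifs in their tails. SIGLEC1, or sialoadhesin, is a sialic acid-binding adhesion receptor of macrophages that lacks such a motif and is widely used as an interferon-responsive marker. CD274 transcription is known to rise with interferon signaling, in which IRF1 takes part, and with NF-kB.

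The genes encoding both PD-1 ligands lie on the minus strand of chromosome 15 of Mmul_10, CD274 at chr15:78309994-78330073 and PDCD1LG2 at chr15:78211661-78271976. The 250 bases before each annotated gene start are shown because these members had the smallest adjusted p values with the R02046 libraries exchanged or left out, though not with the deposited labels, and because the windows differ in an interferon element. They were read from the minus strand of Mmul_10 and are written 5′ to 3′, with matches to the core of the interferon-stimulated response element (GAAANNGAAA, searched on both strands) in capitals.
CD274 (chr15:78330074-78330323): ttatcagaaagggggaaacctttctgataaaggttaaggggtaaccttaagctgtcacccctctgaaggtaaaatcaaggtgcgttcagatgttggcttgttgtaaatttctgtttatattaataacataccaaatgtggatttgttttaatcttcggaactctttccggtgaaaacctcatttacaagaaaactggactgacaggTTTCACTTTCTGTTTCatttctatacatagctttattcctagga
PDCD1LG2 (chr15:78271977-78272226): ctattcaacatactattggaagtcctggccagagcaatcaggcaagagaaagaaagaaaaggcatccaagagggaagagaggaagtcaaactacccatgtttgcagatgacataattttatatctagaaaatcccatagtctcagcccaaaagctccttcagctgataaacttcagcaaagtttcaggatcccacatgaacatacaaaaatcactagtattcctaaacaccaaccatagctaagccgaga
The CD274 window held 2 overlapping matches, both on the strand opposite to the gene, TTTCACTTTC from 44 bases and TTTCTGTTTC from 38 bases before the start. The windows before 2 other annotated starts, inside CD274, held 0 matches each. The PDCD1LG2 window and that of SIGLEC1 held no match to this core. No match to the GAS motif (TTCNNNGAA) or the NF-kB motif (GGGNNTTTCC) was found in these windows or in those of CD274. Among 20782 promoter windows of this length, 3.03% held the interferon core, 5.98% the GAS motif and 1.3% the NF-kB motif. A match describes letters only, and the annotated start may not be the start used in microglia.

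Total counts ran from 9231109 to 32790348 per library, so that the 3 counts a count of 0 allows correspond to 0.0914 to 0.32 CPM (read counts relative to the TMM-scaled library total), covering counting error only. The libraries of R02046 stood apart: the study's supplementary table of CPM lists them with conditions opposite to the deposited labels. The labels were kept for the main comparison, and the members' fitted changes are also given without R02046 and with its libraries exchanged. For other genes, values are those of the deposited labels unless stated. The macrophage markers CSF1R, at 1007 to 1471 CPM, and CD68, at 716.3 to 1289 CPM, were high in all 8 libraries. P2RY12 was at 5.7 to 13.3 CPM, while TMEM119 and CX3CR1, which mark microglia in the intact brain, had means of 0.0904 and 0.393 CPM. All 8 lymphocyte markers had means under 1 CPM, with summed levels of 0.213 to 0.638 CPM with uLPS and 0.168 to 1.08 CPM with MRS2578. In these bulk samples, fewer cells of a type and less RNA per cell cannot be told apart.

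In 3 of the 4 animals, transcripts encoding PD-L1 and PD-L2, SIGLEC1 and LAIR1 were lower in the presence of MRS2578 than with uLPS alone, whereas HAVCR2, VSIR and CD200R1 had no common direction. In R02046, as labelled, all of the first 4 were higher with MRS2578. With the deposited labels no member passed the test (0 of 7), as was the case for all genes (0%, none of 12131). The paper, by contrast, reported genes changed by MRS2578 in edgeR at a false discovery rate under 0.05, without giving its model. With the R02046 libraries exchanged, CD274 and PDCD1LG2 were called lower, 2 of 7 members, where 0.519% of all genes were called lower.

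CD274 was measured at 267.1 and 124.4 CPM in R07110 with uLPS and with MRS2578, at 493.8 and 157.9 CPM in R12016, at 391.4 and 224.1 CPM in R14143, and at 176.4 and 264.6 CPM in R02046. The groups overlapped, because the R02046 library labelled uLPS was lower than 2 of the MRS2578 libraries. Means were 332.2 ± 139.2 CPM (SD, n = 4) with uLPS and 192.8 ± 63.3 CPM (SD, n = 4) with MRS2578. The within-animal log2 differences were -1.10, -1.64 and -0.80 in R07110, R12016 and R14143 and 0.58 in R02046, and the largest fall was in the animal with the highest uLPS level. The edgeR log2 fold change was -0.76 ± 0.33 (SE), with an adjusted p of 0.878. It was -1.18 ± 0.17 without R02046 (edgeR adjusted p = 0.124) and -1.03 ± 0.16 with its libraries exchanged (edgeR adjusted p = 0.0458). The latter call was lost under edgeR's earlier quasi-likelihood estimation (adjusted p = 0.058) and when R07110 (edgeR adjusted p = 0.303) or R12016 (edgeR adjusted p = 0.0993) was left out. Over 7 fits with the exchange, the adjusted p ran from 4.94e-06 in the likelihood ratio test to 0.807 without the replicate block.

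PDCD1LG2 was less abundant than CD274 in reads and followed the same order of animals within the uLPS libraries. It was at 71.4 and 38.1 CPM in R07110 with uLPS and with MRS2578, at 121.5 and 72.2 CPM in R12016, at 96.4 and 67.3 CPM in R14143, and at 60.9 and 98.3 CPM in R02046. The groups overlapped, and the R02046 library labelled MRS2578 was the highest of that condition. Log2 differences of -0.91, -0.75 and -0.52 in the 3 animals stood against 0.69 in R02046. In edgeR the fitted change was -0.38 ± 0.26 on the log2 scale (SE, adjusted p = 0.882), -0.73 ± 0.11 without R02046 (adjusted p = 0.134) and -0.72 ± 0.09 with the exchange (adjusted p = 0.0351). The exchanged value remained under 0.05 with the earlier estimation (edgeR adjusted p = 0.0457) and had its lowest adjusted p, 7.97e-07, in the likelihood ratio test. It was lost without the replicate block, without R07110 (edgeR adjusted p = 0.2997) and without R12016 (edgeR adjusted p = 0.133).

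**Figure D1:**
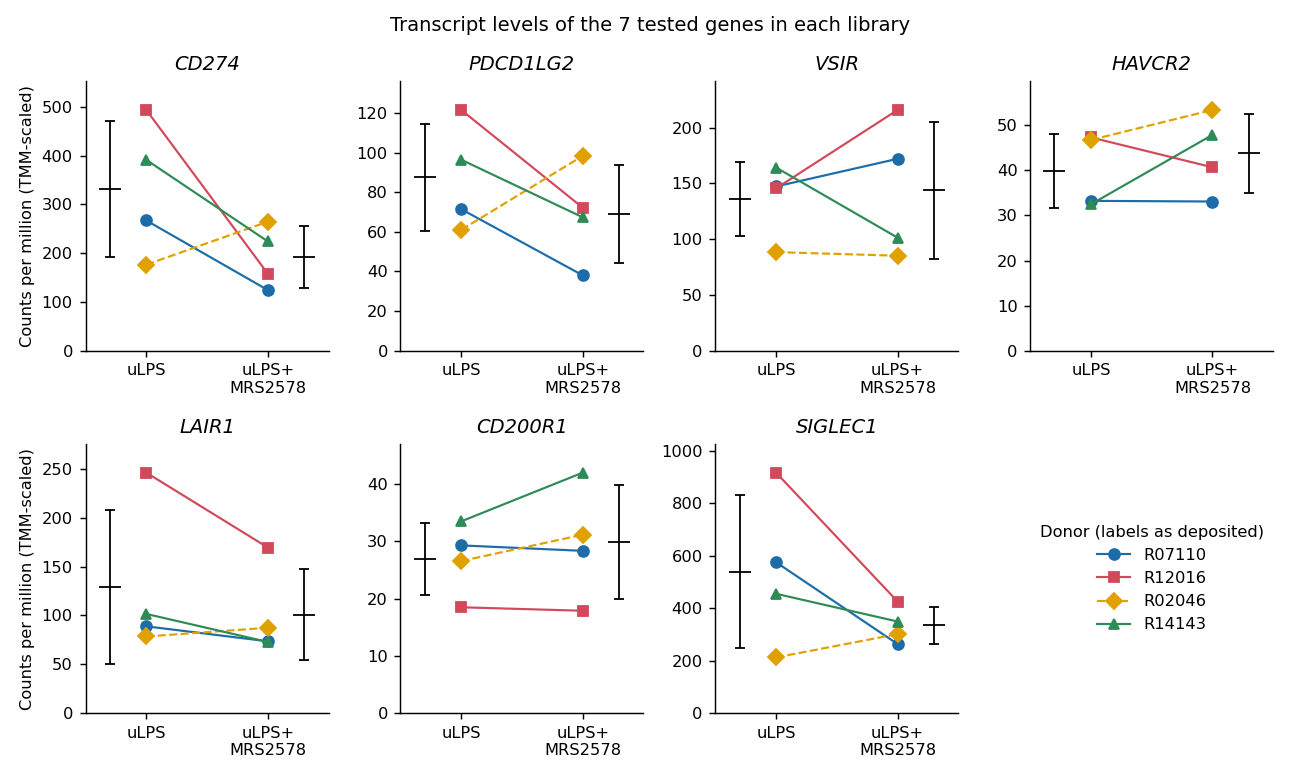
Transcript levels of the 7 tested genes in TMM-scaled CPM (y axis, from 0), with uLPS alone and with uLPS and MRS2578 (x axis). Colored points and lines are the 4 donors with their deposited conditions, R02046 dashed, and black bars are the mean ± SD of 4 libraries. CD274, PDCD1LG2, LAIR1 and SIGLEC1 run downward in R07110, R12016 and R14143 and upward in R02046.

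Across the 8 libraries, which come from 4 animals, CD274 and PDCD1LG2 had a Pearson r of 0.892 on the log2 CPM scale. Per kilobase of annotated exon, the CD274 level was 1.31, 1.42, 1.42 and 1.01 times that of PDCD1LG2 with uLPS in R07110, R12016, R14143 and R02046. With MRS2578 the ratio was 1.14, 0.765, 1.16 and 0.941 in the same order. It was therefore lower with MRS2578 in all 4 animals as labelled, but higher in R02046 if its libraries are exchanged, and no test was made of it.

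VSIR, at chr9:66000261-66021911 on the plus strand, varied between animals without a common direction. Its levels were 147.2 and 172 CPM in R07110 with uLPS and with MRS2578, 145.5 and 215.8 CPM in R12016, 164.2 and 101.3 CPM in R14143, and 88.4 and 85.1 CPM in R02046. R07110 and R12016 were higher with MRS2578, R14143 was lower, and both R02046 libraries were the lowest of their condition. The edgeR log2 fold change was 0.01 ± 0.20 (SE, adjusted p = 0.996), and it was 0.04 without R02046 and with the exchange. Leaving out 1 animal at a time moved it between -0.17 and 0.24. The log2 differences of single animals ran from -0.70 in R14143 to 0.57 in R12016.

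HAVCR2, on the minus strand at chr6:154493130-154516898, was at 32.5 to 47.3 CPM with uLPS and 33.1 to 53.4 CPM with MRS2578. The ranges overlapped almost fully, and the log2 difference was -0.01 in R07110, -0.22 in R12016, 0.56 in R14143 and 0.19 in R02046. The edgeR log2 fold change was 0.13 ± 0.14 (SE, adjusted p = 0.919), 0.11 without R02046 and 0.04 with the exchange. LGALS9, encoding its ligand galectin-9, was not analysed here.

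LAIR1 was set apart by animal. In R12016 its level was 245.9 CPM for uLPS alone and 169.4 CPM for MRS2578, against 78.6 to 101.6 CPM and 73 to 87.5 CPM in the other animals. Log2 differences were -0.27, -0.54 and -0.48 in R07110, R12016 and R14143 and 0.16 in R02046. The edgeR fit for LAIR1 gave -0.29 ± 0.13 on the log2 scale (SE, adjusted p = 0.878), -0.43 ± 0.10 without R02046 (adjusted p = 0.196) and -0.36 ± 0.09 with the exchange (adjusted p = 0.124). Its gene was not matched by symbol to the annotation used for positions, so no position or length is given.

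CD200R1, on the plus strand at chr2:163255670-163290263, had the lowest mean CPM of the tested members. It was at 18.5 to 33.5 CPM with uLPS and 17.9 to 42 CPM with MRS2578, with R12016 the lowest and R14143 the highest animal in either condition. The log2 differences were -0.05 in R07110 and in R12016, 0.33 in R14143 and 0.23 in R02046. By edgeR, the log2 fold change was 0.12 ± 0.12 (SE, adjusted p = 0.908), 0.08 without R02046 and 0.01 with the exchange. CD200, its ligand, was close to the limit of detection, at 1.55 ± 1.25 CPM (SD, n = 4) with uLPS and 0.488 ± 0.461 CPM (SD, n = 4) with MRS2578.

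SIGLEC1, on the plus strand at chr10:62772353-62798214, had the highest mean CPM of the tested members. It was at 575 and 263.8 CPM in R07110 with uLPS and with MRS2578, at 915.9 and 425.5 CPM in R12016, at 455.1 and 349.5 CPM in R14143, and at 212.9 and 301.8 CPM in R02046. The 3 other uLPS libraries were above all 4 MRS2578 libraries, and the R02046 library labelled uLPS was below them all. Log2 differences were -1.12, -1.11 and -0.38 in R07110, R12016 and R14143 and 0.50 in R02046. The mean was 539.7 ± 292.5 CPM (SD, n = 4) with uLPS and 335.1 ± 69.7 CPM (SD, n = 4) with MRS2578. The fold change fitted by edgeR was -0.54 ± 0.27 (log2, SE, adjusted p = 0.878), -0.87 ± 0.17 without R02046 (adjusted p = 0.161) and -0.78 ± 0.15 with the exchange (adjusted p = 0.0629). With the exchange it passed 0.05 in the fit without R14143 (edgeR adjusted p = 0.0147) and in the likelihood ratio test (edgeR adjusted p = 0.000404).

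**Figure D2:**
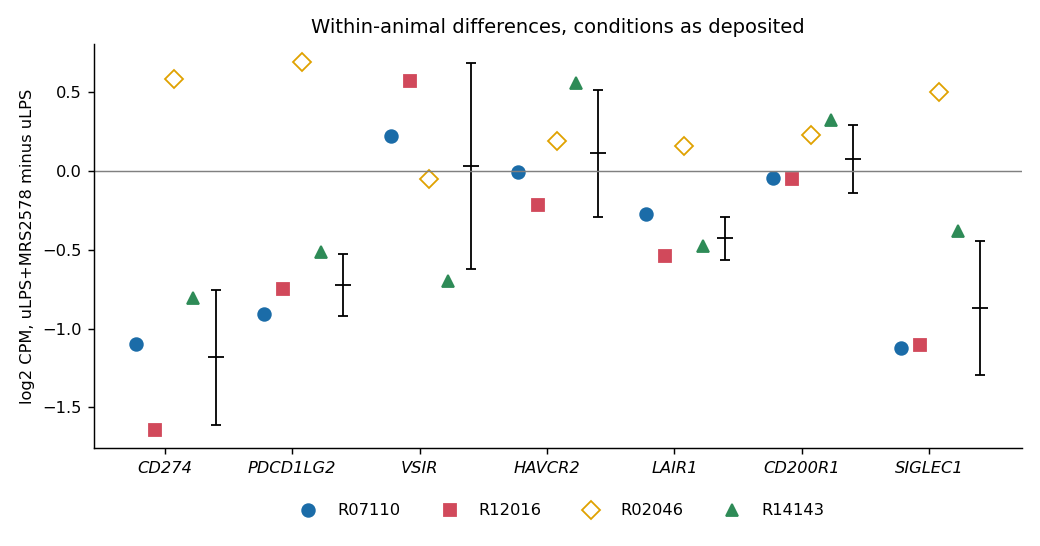
Within-animal differences in log2 CPM between uLPS with MRS2578 and uLPS alone (y axis) for the 7 tested genes (x axis), conditions as deposited. Points are donors, R02046 open, and black bars are the mean ± SD of the 3 other donors. CD274, PDCD1LG2, LAIR1 and SIGLEC1 lie below 0 in R07110, R12016 and R14143 and above 0 in R02046.

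CD33 was next to absent, with 1 read in all 8 libraries, in the MRS2578 library of R12016, and it failed the filter. SIRPA had no row by symbol. The reference gene names pair it with ENSMMUG00000018474, a row that carries no symbol in the files. It was looked up after the values were seen and is not counted among the members. Its mean was 732.9 ± 31.1 CPM (SD, n = 4) for uLPS alone and 684.3 ± 130 CPM (SD, n = 4) for uLPS and MRS2578. Its log2 differences were -0.18, -0.27 and -0.25 in R07110, R12016 and R14143 and 0.23 in R02046. SIRPA encodes the receptor for the CD47 signal against phagocytosis.

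Compared per kilobase of annotated exon, levels were highest for VSIR (83.3 ± 27.2), followed by SIGLEC1 (49.5 ± 25.5), CD274 (36.4 ± 17.3), PDCD1LG2 (31.1 ± 10.3), CD200R1 (27.1 ± 7.47) and HAVCR2 (12.2 ± 2.37), in CPM per kb as mean ± SD of all 8 libraries, among the 6 tested members with a length. With uLPS alone the middle of the order was CD274 (46.1 ± 19.3), PDCD1LG2 (34.8 ± 10.7) and CD200R1 (25.7 ± 6.01), whereas with MRS2578 these genes lay at 26.7 ± 8.78, 27.4 ± 9.8 and 28.4 ± 9.43 CPM per kb (SD, n = 4). Neighbours from VSIR to CD200R1 overlapped in their SD ranges over all libraries, and HAVCR2 was the lowest of these 6 in each library. The annotated exons of CD200R1 and VSIR, at 1.05 and 1.68 kb, were the shortest of these 6. These lengths may lack untranslated ends, which would raise the values of both genes, and this was not checked. Lengths, such as 1.68 kb for VSIR and 7.21 kb for CD274, come from the NCBI annotation, whereas reads were counted per Ensembl gene. The order, and the size of the CD274 to PDCD1LG2 ratios above, depend on these lengths.

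The exact sign-flip test over 4 animals cannot give a two-sided p below 0.125. With the deposited labels it gave 0.25 for CD274 and for LAIR1 and 0.375 for PDCD1LG2 and for SIGLEC1. As labelled, these 4 genes were higher in R02046 alone, so exchanging its libraries makes them lower in 4 of 4 animals. Their sign-flip p of 0.125 with the exchange follows from this. Without R02046 again no gene passed in the edgeR test (0%, 0 of 12295), and 4 of 7 members had an unadjusted p below 0.05 and were lower, against 7.86% of all genes. With the exchange the same 4 members had an unadjusted p below 0.05 and were lower, against 9.59%. With the deposited labels none of the members did, against 5.14% of all genes in either direction. Of all genes tested, 19.8% were lower with MRS2578 in all of R07110, R12016 and R14143, and 17% were higher in all of them, compared with 4 and 0 of the 7 members. The median log2 fold change of the members was -0.29, -0.43 without R02046 and -0.36 with the exchange, while that of all genes was -0.01, -0.0035 and 0.0012, respectively.

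**Figure D3:**
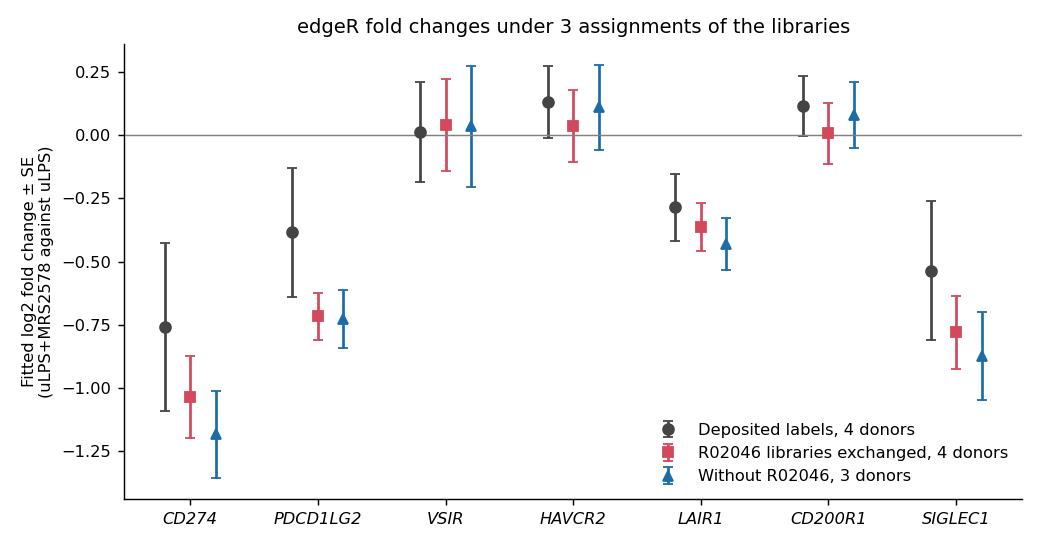
Fitted edgeR log2 fold changes ± SE (y axis) of the 7 tested genes (x axis) under the deposited labels, with the R02046 libraries exchanged and without R02046. The values of CD274, PDCD1LG2, LAIR1 and SIGLEC1 are below 0 under each assignment, and their SE is smaller when R02046 is exchanged or left out.

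The other genes of the inhibitory pathways and of the signals known to control CD274 are given next, as lists chosen with earlier results of these data known. None of their genes passed the test with the deposited labels or without R02046, and the calls with the exchange were all lost when R07110 was left out or the replicate block was dropped (0 genes called in either fit). The genes named from these lists all moved in 1 direction in R07110, R12016 and R14143, most by the rule that chose them. That their fitted change kept its sign without R02046 and with the exchange therefore follows largely from this choice. Among binding partners of the members, 11 were tested, of which 4 were lower and 3 higher in all of R07110, R12016 and R14143. CD80, which binds PD-L1 on the same cell as well as CD28 and CTLA-4, had an edgeR log2 fold change of -0.73 (adjusted p = 0.878) and -0.89 with the exchange (adjusted p = 0.105). The change of CD200 was -1.73 at the low level given above. Its log2 differences were -0.63, -0.90 and -0.49 in R07110, R12016 and R02046 and -3.52 in R14143. The change of CD47 was -0.28, and that of RGMB, a PD-L2 partner, was 0.48.

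Of other inhibitory receptors, 13 were tested, and 7 were lower and 2 higher in the 3 animals. LILRB4, a leukocyte immunoglobulin-like receptor of myeloid cells, was at 99.2 ± 37.3 CPM (SD, n = 4) with uLPS and 69.8 ± 14.6 CPM (SD, n = 4) with MRS2578. Its edgeR log2 fold change was -0.46 (adjusted p = 0.878), and with the exchange it was called lower at -0.64 (adjusted p = 0.0419). SIGLEC10, a sialic acid-binding receptor for CD24, changed by -0.48 and, with the exchange, was called lower at -0.75 (edgeR adjusted p = 0.0411). Log2 fold changes were -0.51 for LILRB5 and 0.56 for CD300A, each with mean levels under 4 CPM. 

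Of other checkpoint ligands and related molecules, 7 were tested, with 3 lower and none higher in the 3 animals. IDO1, the tryptophan-degrading enzyme that restrains T cells, was far more abundant than the members, at 3186 ± 1797 CPM (SD, n = 4) with uLPS and 1833 ± 394.5 CPM (SD, n = 4) with MRS2578. Its edgeR log2 fold change was -0.66 (adjusted p = 0.878), and with the exchange it was called lower at -1.04 (adjusted p = 0.0427). Smaller values of -0.22 and -0.21 were fitted for TNFRSF14, a ligand of the inhibitory receptor BTLA, and for CD86.

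Phosphatases and adaptors that transmit inhibitory signals numbered 11, with 4 lower and 1 higher in the 3 animals, and 0 called under any of these assignments. DOK2, an adaptor that restrains RAS signaling, was at 24.5 ± 13.4 CPM (SD, n = 4) with uLPS and 65.2 ± 47.7 CPM (SD, n = 4) with MRS2578. Its edgeR log2 fold change was 1.22 (adjusted p = 0.878), with differences from -0.69 in R02046 to 3.49 in R12016. The fitted log2 fold changes were -0.13 for LYN, a SRC family kinase, and -0.17 for RASA1, a RAS GTPase-activating protein. Of 6 tested activating receptors and their adaptors, 3 were lower in the 3 animals: TREM1 at -0.39, FCER1G at -0.23 and CLEC5A at -0.19 on the log2 scale.

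Of the interferon and NF-kB genes known to act on CD274, 15 were tested, and 9 were lower and none higher in the 3 animals, with a median log2 fold change of -0.06 that was -0.25 with the exchange. IRF1 had an edgeR log2 fold change of -0.46 (adjusted p = 0.878) and -0.60 with the exchange (adjusted p = 0.0599). Fitted log2 changes were -0.37 for STAT2, -0.30 for NFKB1 and -0.23 for IFNGR2. Among 18 interferon-stimulated genes, 15 were lower in the 3 animals (83.3%) and 18 had a negative fold change, with a median of -0.40 and, with the exchange, -0.54. The log2 fold changes were -0.91 for ISG15, -0.91 for CXCL10, -0.67 for RSAD2 and -0.63 for IFIT2, all with an edgeR adjusted p of 0.878. Only XAF1 of this list was called with the exchange, at -0.65 (edgeR adjusted p = 0.0458).

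**Figure D4:**
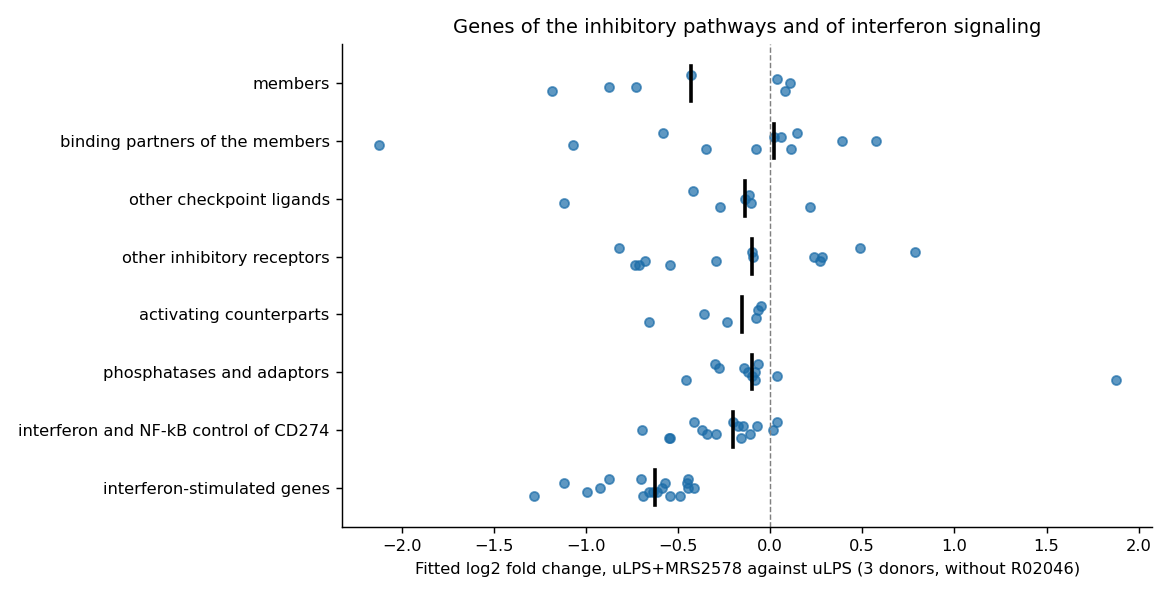
Fitted edgeR log2 fold changes (x axis) of the tested genes in each list (y axis), from the 3 donors other than R02046. Each point is a gene, the black bar is the median of the list and the dashed line is the median of all genes. Interferon-stimulated genes all lie below 0, and the members spread from -1.18 to 0.11.

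Genes whose log2 CPM followed that of a member most closely over the 8 libraries, among 10926 genes with a symbol, are given as a description, since the libraries are paired within 4 animals. For CD274 these were AOAH (Pearson r = 0.985), ARMH3, INTS14 and SCG3. PDCD1LG2 was followed by PRRG1 (r = 0.971), ENTPD1, RHOQ, ECM1 and CTSC. SIGLEC1 had N4BP1 (r = 0.996), DHX58 (r = 0.986), CFLAR, ELF1 and PARP9, and HAVCR2 had ADCK1 (r = 0.953), SLC35B4, FUT10, KBTBD4 and CSTF3. Among the members themselves, LAIR1 and CD200R1 had an r of -0.83, in which R12016 was the highest animal for the former and the lowest for the latter.

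Summed markers of other cells were above 0 in all groups, and their part in these results was not tested. A few genes carried most of several sums, so a sum alone does not show whether its cell type was present. Over all libraries, PECAM1 and VWF (endothelial cells) averaged 141.7 and 67.55 CPM, but CLDN5 and CDH5 0.044 and 0.0647 CPM. For oligodendrocytes, CNP and MBP averaged 204.1 and 66.24 CPM, but MOG and MOBP 0.093 and 0.1335 CPM. For border macrophages and monocytes, CD163, MRC1, VCAN and F13A1 averaged 1022, 405.4, 213.2 and 18.82 CPM, but S100A8 and S100A9 0.00914 and 0.00635 CPM. Of the astrocyte markers, GFAP, SLC1A2 and GJA1 averaged 40.38, 25.91 and 23.07 CPM, but AQP4 and ALDH1L1 0.741 and 0.335 CPM. Of the mural cell and fibroblast markers, COL1A2 and DCN averaged 111.1 and 63.59 CPM, but PDGFRB, LUM, ACTA2 and RGS5 2.338, 1.683, 1.397 and 0.0284 CPM. Summed levels with uLPS and with MRS2578 were 1458 to 1710 and 1577 to 1960 CPM for border macrophages and monocytes, and 4065 to 4780 and 3869 to 4914 CPM for microglia and macrophages. They were 5.76 to 92.5 and 6.26 to 27.4 CPM for dendritic cells, of which FLT3 and XCR1 were at 0 in every library. The sums were 238.3 to 407.2 and 222.7 to 304.2 CPM for oligodendrocytes, 45.9 to 150.5 and 57.6 to 128.3 CPM for astrocytes, 155.1 to 239.4 and 157 to 291.7 CPM for endothelial cells, and 44.5 to 476.6 and 100.1 to 230.6 CPM for mural cells and fibroblasts.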

How the data were processed

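RNA of primary microglia from 4 macaques was measured in 8 libraries. The authors deposited raw counts of reads per Ensembl gene, which are not normalized. Their paper names fastp, STAR and HTSeq with unique reads in exons of Mmul_10, whereas the submitters' processing notes name Trimmomatic 0.30, TopHat2 2.0.14, SAMtools 1.3 and HTSeq 0.6.1p1. The strand setting and annotation release are not given in the sources used here, so overlapping genes and near-identical copies, such as SIGLEC and LILRB genes, have uncertain counts.

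Conditions and donors were taken from the labels. Counts were analysed in R 4.3.3 with edgeR 4.0.16 (limma 3.58.1 and DESeq2 1.42.0 also used), with filterByExpr at a minimum count of 10 and TMM scaling. The effect of MRS2578 was tested in edgeR by quasi-likelihood F-tests on a model of condition and donor, adjusted by Benjamini-Hochberg over all genes, at 0.05. The libraries are paired because each animal gave both, and deviations of an animal's libraries from the condition means correlated at 0.458 to 0.602. Single values were set against an exact sign-flip permutation test on log2 CPM (prior count 2). No library was a duplicate (chi-square per degree of freedom of at least 19.6). Tested on simulated data with 200 genes changed 3-fold, the fit recovered 200 among 210 called of 12199, and with none changed it called 0 of 12150. The simulation gave all genes the same dispersion and all animals the same effect, and changed only genes with higher counts. It therefore does not show the power for smaller changes or for animals that differ in direction. Alternatives covered scaling, test, filter, block, each animal left out and the conditions of R02046. The earlier quasi-likelihood estimation was chosen after seeing the data.

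Members and lists were chosen with earlier results of these data known. The genes named are all members and, in each list, up to 4 genes with the largest fold change among those with 1 direction in R07110, R12016 and R14143, besides any called. For 4 members the 5 genes with the highest correlation are named. A few genes that these rules select are not reported here. Positions, exon lengths and sequences come from the NCBI annotation of Mmul_10.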

Additional observations from a re-analysis of the deposited data

Results flagged for a closer look

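LAIR1 stood out within both conditions because of R12016. With uLPS its gap to the nearest other animal was 0.862 of the range of the 4 animals, with R12016 at 245.9 CPM, and with uLPS and MRS2578 it was 0.85, with R12016 at 169.4 CPM. Such a gap flags about 1 in 20 groups by chance, and both values come from the same animal. The rule was applied to the levels in each condition and to the within-animal differences of all 7 tested members.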

How the results depend on the processing

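With the deposited labels, no member was called in any fit, and the edgeR count of 0 genes (624 at an unadjusted p under 0.05) became 1 with DESeq2's Wald test and 5 with edgeR's likelihood ratio test. Exchanging the R02046 libraries gave 75 genes and 2 members, and then 616 genes and 3 members with the likelihood ratio test, 39 and 1 with the earlier estimation, 5 and 0 without R12016, 918 and 3 without R14143, and 0 and 0 without R07110. Without the replicate block, 0 genes were called with either assignment, so the calls of CD274 and PDCD1LG2 were lost. Leaving out each animal gave 0 genes and 0 members with the deposited labels. The sign of VSIR turned to -0.06 without R07110 and -0.17 without R12016, and with the exchange to -0.025 and -0.13. That of HAVCR2 turned to -0.015 without R14143, and to -0.14 with the exchange, where CD200R1 turned to -0.11. The range on leaving out an animal was -0.17 to 0.24 for VSIR, -0.015 to 0.25 for HAVCR2, -1.18 to -0.45 for CD274, -0.73 to -0.21 for PDCD1LG2, -0.87 to -0.33 for SIGLEC1, -0.43 to -0.20 for LAIR1 and 0.04 to 0.17 for CD200R1. For CD274, PDCD1LG2, SIGLEC1 and LAIR1 the largest change came without R02046. The smallest came without R12016 for CD274, SIGLEC1 and LAIR1 and without R07110 for PDCD1LG2. SIGLEC1 was also at -0.33 without R07110, and PDCD1LG2 at -0.25 without R12016. The causes were not tested. CD274, PDCD1LG2, LAIR1 and SIGLEC1 kept their direction in all 12 fits with the deposited labels and all 7 with the exchange. The number of animals and the conflict over R02046 limit these comparisons, and low counts limit CD33 and CD200.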
